A study of Bos taurus with 2 samples.

Results

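Cathepsins are proteases of the lysosome, the acidic compartment in which cells break down proteins. Most of the family are papain-like cysteine proteases, made as inactive precursors that are cut to the active form in acid. CTSD is an aspartic protease and CTSA a serine carboxypeptidase. Cathepsin D has long been known as one of the native proteases of bovine milk, where it can cut caseins.

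CTSA, CTSB, CTSC, CTSD, CTSH, CTSK, CTSS and CTSZ, 8 genes out of 15862 named genes on the array, are described here. They were chosen by symbol, as every non-control probe whose gene name in the array files is one of them. They have 20 probes in all, 2 or 3 per gene. The study measured messenger RNA in 2 fractions of whey from the raw milk of Holstein cows. The exosome fraction is what sedimented in an ultracentrifugation given in the labels as 10000 g for 90 min, suspended again and spun in 2 wash steps. The supernatant fraction is the liquid above the first pellet, without a wash. For each fraction RNA from 3 milk samples was combined, and 100 ng was labelled with the dye Cy3 and put on 1 array, so there were 2 arrays, no replicates and no test of any difference. Exosomes are small vesicles released by cells. The labelled speed is below that generally used to pellet them, and whether the label gives it in full is not known.

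Signals are the scanner software's processed values, without scaling between arrays unless stated. A probe was called detected where the software flagged it as well above background, and 1 detected probe made its gene detected. The lowest detected signal was 11.3 for the exosome fraction and 8.75 for the supernatant. Errors after ± are the software's own error estimate for 1 spot. Probes printed on 4 spots varied with an SD of 0.11 (log2) in the exosome fraction (39 detected probes) and 0.21 in the supernatant (11 detected probes). None of the 20 probes was an outlier spot or saturated. Neither value measures variation between cows or preparations. The RNA came from pooled whey fractions and not from an extract of cells. The values cannot tell apart how many cells of a type gave RNA and how much each gave, nor the number of vesicles and the RNA in each.

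The probes on which the results turn are shown here as the array files print them, 5′ to 3′, with positions counted along the listed transcript and coordinates in build HGSC Btau_3.1. The first set shows probes from inside the transcript, 60 bases each, because they decide whether a gene was seen away from its 3′ end. Each has at least 1 reading frame without a stop codon, and none holds the hexamer AATAAA. The open frame does not set them apart. Of the probes in the second set, those of CTSB and CTSD also have 1 over their 60 bases, and that of CTSZ has 0. The CTSA probe lies at position 644 (chr13:75423652-75423711), the CTSD probe at position 839 (chr29:51573766-51573825) and the CTSZ probe at position 721 (chr13:58105252-58105311), with coordinates listed in ascending order.
CTSA, position 644: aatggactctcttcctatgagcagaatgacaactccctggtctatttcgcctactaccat
CTSD, position 839: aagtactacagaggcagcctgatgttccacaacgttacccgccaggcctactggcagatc
CTSZ, position 721: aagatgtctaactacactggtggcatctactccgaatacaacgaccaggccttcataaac

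The second set shows 30 bases of the 3′-most probe of 3 genes, because these probes reach the hexamer AATAAA, in capitals, which is the usual signal for adding the poly(A) tail. The probes lie at position 1785 of CTSB (chr8:7465875-7465934), position 1917 of CTSD (chr29:51575333-51575391) and position 1351 of CTSZ (chr13:58107097-58107156), again in ascending order.
CTSB, position 1785: aggaatggctgccAATAAAaagcctctcct
CTSD, position 1917: agttggcacgaaAATAAAgttgttcaggcc
CTSZ, position 1351: gcccaagtgatgAATAAAatgcacacttca

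The hexamer stood in 3 of the 20 cathepsin probes (15.0%) and in 9.35% of all 43652 probes. On the opposite strand, as TTTATT, it stood in 0 of the 20 and in 3.46% of all probes. Over all probes, 70.6% of those with AATAAA were detected on the exosome array, against 57.2% of those without. For the supernatant these shares were 22.7% with and 12.1% without it.

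All 8 cathepsin genes were detected in the exosome fraction, and 1 of them, CTSA, in the supernatant. Of all named genes 69.2% were detected in the exosome fraction and 22.8% in the supernatant. For the 6997 named genes with 2 or 3 probes of 1 accession, as each of these 8 has, the shares were 77.4% and 24.9%. Detection in the exosome fraction alone held for 7 of the 8 cathepsin genes and for 47.4% of named genes. At the level of probes, 13 of the 20 (65.0%) were detected for the exosome fraction and 1 (5.00%) for the supernatant, and over all 43652 probes these shares were 58.5% and 13.1%, so the exosome share of cathepsin probes was near that of all probes. When every probe of a gene needed the call, 3 of the 8 cathepsin genes were detected in the exosome fraction, against 48.1% of named genes. Genes with 1 probe count in that share, so it is not matched to genes with 2 or 3. The 13 exosome signals ran from 34.6 to 1380, with a median of 91.1. The 19 undetected supernatant signals ran from 1.84 to 8.53, with a median of 2.61, and 15 of them were under 4.32, the 99th percentile of the 153 negative control spots there. No cathepsin probe was detected on both arrays, so no member has a measured difference between the fractions, and each has at most a bound.

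**Figure D1:**
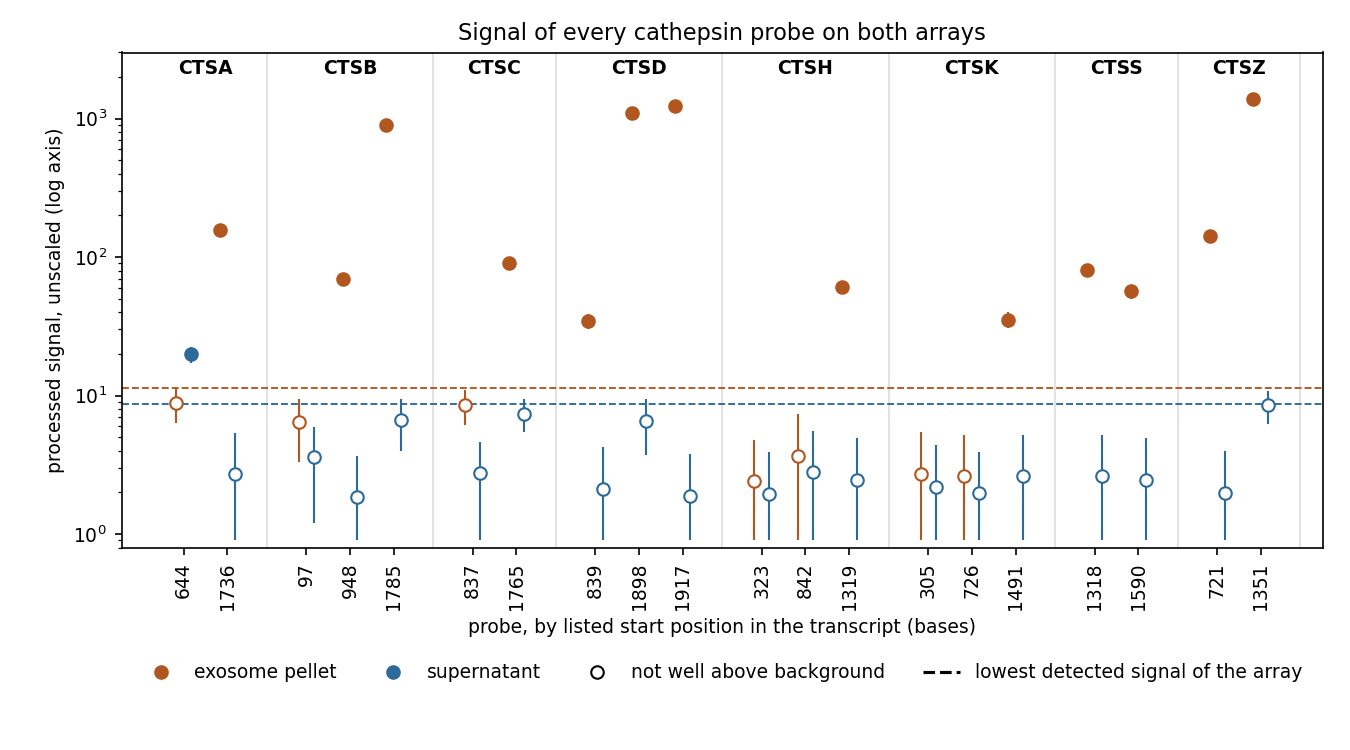
Processed signal (log axis, unscaled) of each of the 20 cathepsin probes, grouped by gene and ordered by position in the transcript, on the exosome array (orange, left) and the supernatant array (blue, right). Bars are the scanner software's error estimate, cut off at the lower end of the axis, open points were not well above background, and dashed lines mark the lowest detected signals, 11.3 and 8.75. All 13 detected exosome points stand above both lines, and 1 supernatant point, CTSA at position 644, is detected.

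The aspartic protease CTSD, which cuts proteins at their inside in the lysosome, was detected in the exosome fraction by all 3 of its probes. Its probe at position 839 had a signal of 34.6 ± 4.49 in the exosome fraction, against 2.12 ± 2.11 in the supernatant. At position 1898 the signal was 1102 ± 110 in the exosome fraction and 6.57 ± 2.84 in the supernatant. At position 1917 it was 1235 ± 124 in the exosome fraction and 1.89 ± 1.89 in the supernatant. All 3 exosome values lie above their supernatant values, and the exosome signal at position 839 is the lowest of the 13 detected for the family. No supernatant value was called detected, though the one at position 1898 lies above 4.32, the 99th percentile of the negative controls. The last 2 probes share 41 of their 60 bases and are close to 1 measurement. A bound is the least fold by which the exosome signal was higher. Unscaled, it was 3.95-fold at position 839, 126-fold at position 1898 and 141-fold at position 1917. Averaged over the 3 probes on the log2 scale, the CTSD bound was 41.3-fold. This mean counts the overlapping pair as 2 probes and lies above what the probe at position 839 gives.

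CTSZ, also called cathepsin X, trims proteins from their carboxyl end. Its probe at position 721 had 142 ± 14.4 in the exosome fraction and 1.99 ± 1.99 in the supernatant. Its probe at position 1351 had 1380 ± 138 in the exosome fraction and 8.53 ± 2.25 in the supernatant. Both probes were detected in the exosome fraction and neither in the supernatant, where the second lay just under 8.75. It passed the software's weaker flag for a signal above background. That probe holds a run of 6 G, and 37.7% of all probes with 5 or more G in a row were detected in the supernatant, against 12.4% of the others. Whether the run adds to the 8.53 was not tested. Over both probes the unscaled CTSZ bound was 50.5-fold.

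CTSB acts both as an endopeptidase and as a dipeptidase at the carboxyl end, and is among the most widely expressed lysosomal proteases. Its probe at position 1785 had 905 ± 90.6 in the exosome fraction and 6.71 ± 2.70 in the supernatant. At position 948 the signal was 69.6 ± 7.35 in the exosome fraction and 1.84 ± 1.84 in the supernatant. Both of these were detected in the exosome fraction alone. The supernatant value at position 1785 passed the weaker flag and lay above 4.32, the 99th percentile of the negative controls. The third probe, at position 97, had 6.39 ± 3.08 in the exosome fraction and 3.59 ± 2.39 in the supernatant and was detected in neither. Over the 2 detected probes the unscaled bound was 28.7-fold.

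CTSC, also called dipeptidyl peptidase I, activates the serine proteases stored in granules of neutrophils, mast cells and cytotoxic lymphocytes. Its probe at position 1765 had 91.1 ± 9.39 in the exosome fraction and 7.41 ± 1.97 in the supernatant. There it was not detected, but it passed the weaker flag and lay above 4.32, the 99th percentile of the negative controls. Its other probe, at position 837, had 8.60 ± 2.44 in the exosome fraction and 2.76 ± 1.87 in the supernatant and was detected in neither. The unscaled bound for CTSC was 10.4-fold, from 1 probe.

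CTSS works in antigen-presenting cells, where it cuts the invariant chain from class II molecules. Its probe at position 1318 had 80.7 ± 8.67 in the exosome fraction and 2.61 ± 2.60 in the supernatant. At position 1590 the signal was 56.4 ± 6.39 in the exosome fraction and 2.48 ± 2.47 in the supernatant. Both probes were detected in the exosome fraction, and each supernatant value was about as large as its error. The unscaled bound was 7.71-fold.

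CTSH is mainly an aminopeptidase, and CTSK is the collagen-cutting cathepsin best known from bone-resorbing osteoclasts. CTSH was detected in the exosome fraction by its probe at position 1319 (chr21:24945867-24945926), with 60.6 ± 6.78, against 2.46 ± 2.45 in the supernatant. Its probes at positions 323 and 842 had 2.40 and 3.68 in the exosome fraction and 1.96 and 2.78 in the supernatant, all undetected. CTSK was detected in the exosome fraction by its probe at position 1491 (chr3:21502618-21502677), with 35.3 ± 4.73, against 2.61 ± 2.60 in the supernatant. Its probes at positions 305 and 726 had 2.71 and 2.61 in the exosome fraction and 2.20 and 1.97 in the supernatant, also undetected. So for both genes the exosome call rests on the single 3′-most probe. The unscaled bounds were 6.93-fold for CTSH and 4.04-fold for CTSK.

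CTSA, also called protective protein, holds the lysosomal enzymes beta-galactosidase and neuraminidase in a complex that keeps them stable. Its 2 probes pointed opposite ways. The probe at position 1736 (chr13:75428276-75428335) had 156 ± 16.0 in the exosome fraction and 2.70 ± 2.69 in the supernatant, so only the exosome value was detected, at least 17.8-fold higher before scaling. The probe at position 644 had 8.90 ± 2.53 in the exosome fraction and 19.8 ± 2.72 in the supernatant, so only the supernatant value was detected, at least 1.76-fold higher before scaling. Its supernatant signal was above the highest undetected signal of that array, 13.9, and its exosome signal passed the software's weaker flag for a signal above background. Probes that disagree in this way were rare: among the 6997 named genes with 2 or 3 probes made from 1 transcript accession, 0.486% had 1 probe detected in the exosome fraction alone and another in the supernatant alone, 34 genes with CTSA included. CTSA has no gene-level difference for this reason.

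In the exosome fraction the 3′-most probe was detected more often than the 5′-most. It was detected there for 8 of the 8 cathepsin genes, and the 5′-most probe for 3 of them (CTSD, CTSS and CTSZ). CTSB, CTSD, CTSS and CTSZ were also detected by a probe other than the 3′-most. CTSS has no probe before position 1318, and its 5′-most probe was the brighter, at 80.7 against 56.4. Over the 6997 genes with 2 or 3 probes of 1 accession these shares were 70.5% for the 3′-most and 56.0% for the 5′-most probe. The 3′-most probe but not the 5′-most was detected for 5 of the 8 cathepsin genes and for 20.5% of those genes. The reverse held for 0 of the 8 and for 6.09% of those genes. In the supernatant the 3′-most probe was detected for 0 of the 8 cathepsin genes and 16.7% of those genes, and the 5′-most for 1 of the 8, CTSA, and 8.27% of those genes. Of the 7 cathepsin probes undetected in the exosome fraction, 4 have listed coordinates that span more than their 60 bases, from 695 to 4826 bases (the first CTSB probe, 2 CTSH probes and 1 CTSK probe), so they cross at least 1 exon boundary in the listed build. None of the 13 detected probes does. Over all 42751 probes with listed coordinates, 52.2% of those that span more bases than they hold were detected in the exosome fraction, against 59.9% of the others. The 4 probes are also none of them the 3′-most of their gene. What sets this pattern was not tested, and 8 genes are few.

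**Figure D2:**
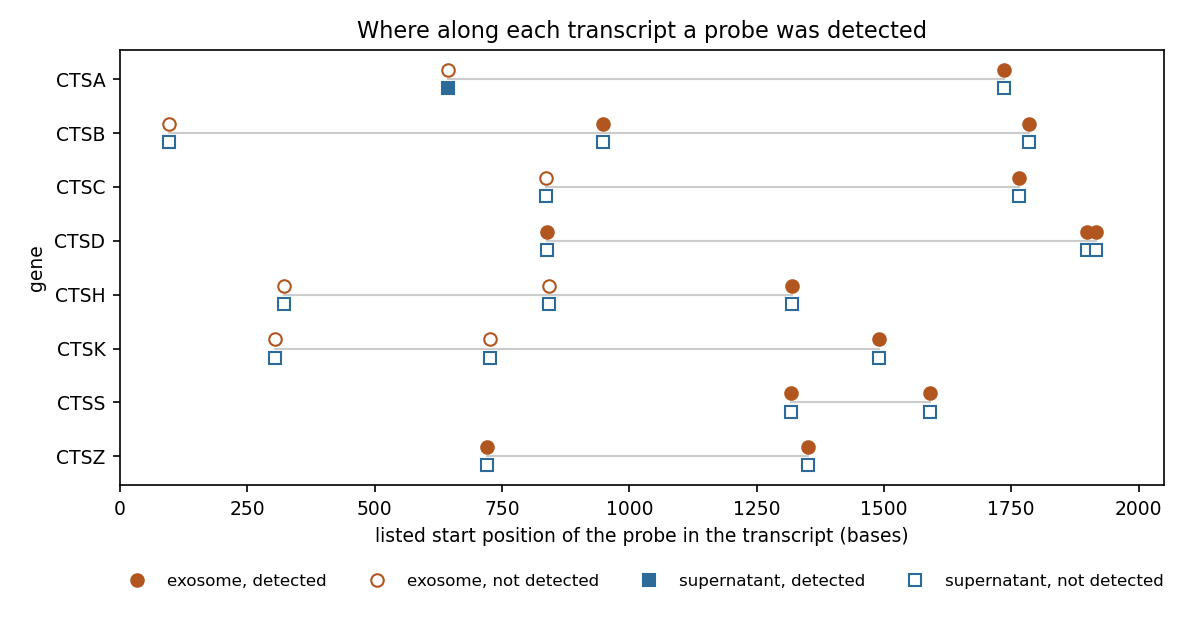
Listed start position of each cathepsin probe in its transcript (bases), one row per gene, with exosome calls (circles, above) and supernatant calls (squares, below). Filled marks were well above background. The rightmost circle is filled in all 8 rows, the leftmost in 3 (CTSD, CTSS, CTSZ), and the only filled square is CTSA at 644.

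The size of the contrast depended on how the arrays were scaled. Without scaling, 7 of the 7 cathepsin genes detected in the exosome fraction alone had a bound of at least 2-fold, as had 94.7% of the 7519 named genes with such a bound. The median bound was 10.4-fold for the 7 cathepsins and 14.4-fold for all 7519 genes. With normexp background correction in place of the software's, the unscaled bounds of CTSH, CTSK and CTSS fell below 2-fold. Scaling to the 8 spike-in probes measured on both arrays lowers every exosome-to-supernatant ratio 4.82-fold. It left 4 cathepsins at 2-fold or more, CTSZ at 10.5-fold, CTSD at 8.56-fold, CTSB at 5.95-fold and CTSC at 2.16-fold, with 60.4% of all such genes. CTSS then had a bound of 1.60-fold and CTSH of 1.44-fold, and CTSK had none. Scaling to each array's 75th percentile, the common setting for these arrays, lowers every ratio 47.3-fold. It left 0 cathepsins at 2-fold or more, with 14.2% of all such genes, and only CTSZ with a bound above 1, at 1.07-fold. With the 3′-most probe alone in place of the mean over detected probes, 3 of the 8 cathepsins (CTSB, CTSD and CTSZ, whose 3′-most probe is their brightest) had a bound of at least 2-fold under this scaling, with 27.4% of the 3814 genes given a bound in the same way. On the supernatant array this percentile stood at 5.24, below the lowest detected signal there. With it the supernatant signal of the CTSA probe at position 644 was at least 83.1-fold higher than the exosome signal, and at least 8.47-fold higher with spike-in scaling. A bound below 1 sets no direction. A bound follows the exosome signal, so its size is not a ranking of the genes by their true contrast.

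**Figure D3:**
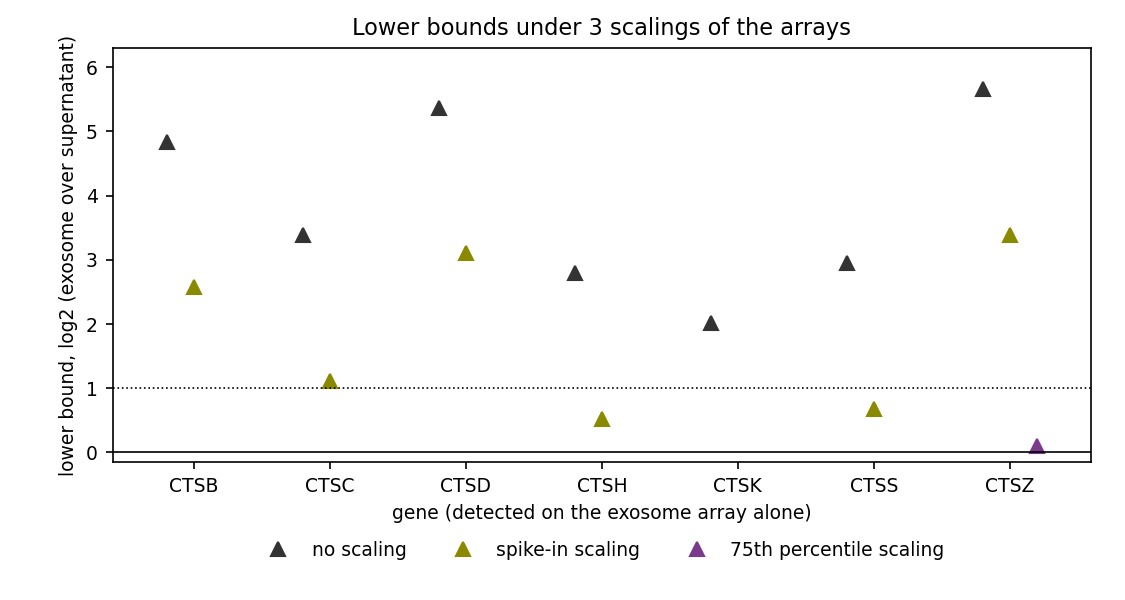
Lower bound of the exosome-to-supernatant ratio (log2) for the 7 cathepsin genes detected in the exosome fraction alone, without scaling, with spike-in scaling and with 75th percentile scaling. The dotted line marks 2-fold, and bounds below 0, which give no direction, are not drawn. All 7 lie above the dotted line without scaling, 4 with spike-in scaling and 0 with 75th percentile scaling.

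The other cathepsins on the array showed detection in the exosome fraction for 4 of 6 genes (66.7%) and in the supernatant for 0 of 6. For all named genes these shares were 69.2% and 22.8%. CTSF, a further cysteine cathepsin, was detected in the exosome fraction by all 3 probes, with signals from 41.0 to 336, against 1.93 to 2.25 in the supernatant. CTSV, called CTSL2 in the array files, was detected there by all 5 probes, with 15.3 to 97.2, against 1.91 to 2.68 in the supernatant. CTSL had 53.1 in the exosome fraction and 4.82 in the supernatant on its 1 probe. CTSV and CTSL are close relatives, and whether their probes read each other's transcripts was not tested. CTSW, known from cytotoxic lymphocytes, was detected in the exosome fraction by 2 of 4 probes, those at positions 298 and 1269 but not the one at 1403, so the 3′ pattern above did not hold for it. CTSG, a granule protease of neutrophils, and CTSO were detected in neither fraction, each with 1 probe, at 2.90 and 2.61 in the exosome fraction and 2.29 and 1.95 in the supernatant.

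Cysteine cathepsins are held in check by cystatins. Of 6 inhibitor genes 3 were detected in the exosome fraction and 0 in the supernatant, beside 69.2% and 22.8% of all named genes. CSTB, the intracellular inhibitor stefin B, was detected by all 3 probes, with 4881 to 14522 in the exosome fraction and 1.90 to 4.38 in the supernatant. CST3, the secreted cystatin C, had 622 and 2698 in the exosome fraction on its 2 probes and 2.78 and 5.42 in the supernatant. CST6, a secreted cystatin, had 696 in the exosome fraction and 6.87 in the supernatant. The unscaled bounds were 897-fold for CSTB, 148-fold for CST3 and 79.5-fold for CST6. With 75th percentile scaling they were 19.0-fold, 3.13-fold and 1.68-fold, so CSTB and CST3 kept a mean bound past 2-fold. None of the 7 cathepsins with a gene-level bound did, and 14.2% of all named genes with such a bound did. By single probe, under the same scaling, the bound was 2.19-fold for CTSB at position 1785 and 3.33-fold for CTSZ at position 1351. For CTSD it was 2.66-fold at position 1898 and 2.98-fold at position 1917. Sizes of bounds follow the exosome signal and do not rank inhibitors against cathepsins. CSTA, CST7 and KNG1 were detected in neither fraction.

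Among the rest of the lysosomal genes, a list of 32 holds other hydrolases, with PSAP and GM2A, which encode activators of such enzymes. Of these 32 genes, 22 (68.8%) were detected in the exosome fraction and 7 (21.9%) in the supernatant. Both shares were near those of all named genes, 69.2% and 22.8%. All 7 hydrolases detected in the supernatant were measured on both arrays. Against the median gene of those measured on both, which was 3.50 (log2) brighter in the exosome fraction, 1 stood at least 2-fold above, 5 at least 2-fold below and 1 between. The extremes were MAN2B1, an alpha-mannosidase, at 2.76 and LIPA, the lysosomal acid lipase, at -2.01. How many of all genes measured on both arrays passed these 2-fold limits is not given here. GLB1 and NEU1, the partners of CTSA, were detected in the exosome fraction by all of their 4 and 2 probes, and in the supernatant by none. All 15 genes of the lysosomal membrane and proton pump were detected in the exosome fraction and 2 in the supernatant. Of these MCOLN1, a calcium channel, had the 1 measured difference, -1.62. All 13 genes that sort enzymes to lysosomes were detected in the exosome fraction and 4 in the supernatant, from SORL1 at -2.10 to GNPTG at 2.69. All 3 transcription factors of lysosomal genes were detected in the exosome fraction, and TFEB in both fractions, at 0.73. Of 5 genes of class II antigen loading, the step in which CTSS acts, 4 were detected in the exosome fraction and 0 in the supernatant.

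**Figure D4:**
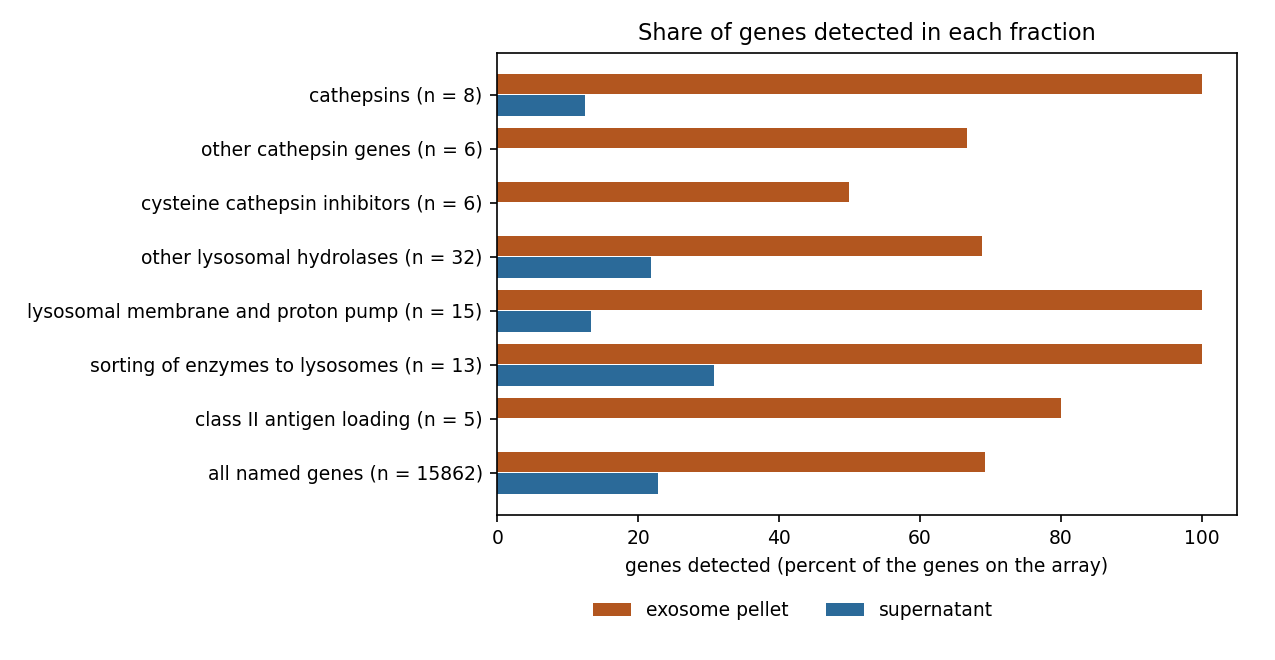
Percent of the genes of each list detected on the exosome array (orange, above) and the supernatant array (blue, below), with the number of genes on the array in brackets. Cathepsins stand at 100% and 12.5%, and all named genes at 69.2% and 22.8%. Lists with no blue bar had 0 genes detected in the supernatant.

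Cathepsins are made by mammary epithelium and by the white cells of milk, so markers of both are given. The counts below stand beside 69.2% of all named genes detected in the exosome fraction and 22.8% in the supernatant. The summed signals are unscaled and include undetected probes, so they do not measure the amount of a cell type. All 8 markers of luminal epithelium were detected in the exosome fraction and 5 in the supernatant, with probe signals summing to 1859850 in the exosome fraction and 2745 in the supernatant. The brightest probes in the first sum are of milk protein genes, LALBA at 313295 and CSN2 with 5 probes from 109486 to 270033. The highest exosome signal was 87883 for ELF5 and 56361 for KRT19. It was 1903 for KRT8, 595 for KRT18, 509 for EPCAM and 135 for CDH1. Of 6 macrophage markers 4 were detected in each fraction, with CD163 in the supernatant alone and MARCO in neither, and a summed probe signal of 2149 in the exosome fraction and 119 in the supernatant. Of 7 neutrophil markers 4 were detected in the exosome fraction, where MPO, CSF3R and CXCR2 were not, and 1 in the supernatant, with sums of 1230 in the exosome fraction and 90.6 in the supernatant. Of 6 T cell markers 4 were detected in the exosome fraction and 3 in the supernatant, with sums of 11341 in the exosome fraction and 2912 in the supernatant. Most of the first sum is 1 CD4 probe at 10129, and most of the second is 1 CD3D probe at 2437. CD3E and CD8A were detected in neither, and CD3D was dimmer in the exosome fraction, at 888 against 2437 in the supernatant on its 1 detected probe. B cell markers were detected in each fraction for 2 of 4 genes, with sums of 1000.1 in the exosome fraction and 146 in the supernatant, and CD79B and MS4A1 were detected in neither. Fibroblast markers were detected in the exosome fraction for 4 of 4 genes and in the supernatant for 3, with sums of 15304 in the exosome fraction and 1429 in the supernatant. Most of the exosome sum is 1 COL3A1 probe at 11443, the only 1 of its 10 probes detected there. The part of any of these cell types in the cathepsin signals was not tested.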

How the data were processed

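The 2 arrays, 1-colour Agilent bovine arrays, hold 1 whey fraction each. As deposited by the authors, intensity values are background-subtracted and detrended within each array in Agilent Feature Extraction (version 10.7.3.1), as the file headers and the submitters' processing notes state, and are not scaled between arrays. In the authors' deposited table the log2 values differ from log2 of these signals by no more than 0.001 at all 43602 probes with 1 spot and no outlier flag, with column medians of 4.81 (exosome) and 1.32 (supernatant), so they are neither scaled nor centred. The software's flags, a score of 0 or 1 per spot, were used as deposited. Any further step is not given in the sources used here.

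Outlier spots (5 on the exosome array, 2 on the supernatant array) and control spots were dropped, and averaging repeated spots gave 43652 probes. A probe with several spots was detected where at least as many of them were as were not. Symbols came from the array files, updated by accession through RefSeq's gene table for ARS-UCD2.0 (26340 probes), leaving 10101 probes unnamed. All 20 cathepsin probes kept their symbol. Probes were not placed in exons or untranslated regions by an annotation. Exon boundaries were inferred only from listed coordinates that span more bases than the probe holds. A bound divides the brighter signal by either the dim signal or the dim array's lowest detected signal, whichever is higher, averaged on the log2 scale over the probes detected on the brighter array. The size call was 2-fold. A gene's difference, for genes of other lists, is the mean over probes detected on both arrays, given relative to the median of 3391 such genes. With 1 array per fraction no p-value is given, and the number of arrays limits the precision. Depth has no counterpart here. Normexp (with an offset of 50) and quantile alternatives used limma 3.58.1. The arithmetic was tested on simulated data.

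Named were every cathepsin probe, every other cathepsin and inhibitor on the array, and the highest and lowest measured gene of each other list. GLB1, NEU1 and the markers named beside their counts were chosen after their values were seen. The members and lists were chosen with earlier results of these data known. Alternatives covered scaling, background correction, the detection rule, the floor of the bounds and the probes used.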

Additional observations from a re-analysis of the deposited data

How the results depend on the processing

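The count of cathepsin genes detected in the exosome fraction was 8 with the weaker flag, with names also taken through the reference table, with outlier spots kept and with the 3′-most probe only (chosen after seeing the data), and 7 at 4 times the lowest detected signal. Of all named genes 84.2% passed the weaker flag and 57.0% the higher limit. It was 3 of 8 when every probe of the gene needed the call. That rule held for 48.1% of named genes, whatever their number of probes. With the 5′-most probe only the exosome count was 3 (56.0% of genes with 2 or 3 probes of 1 accession). The supernatant count of 1 was 5 with the weaker flag, which 66.3% of all named genes passed there. It was 0 when every probe needed the call (5.91% of named genes) and 0 at 4 times the lowest signal (8.71%). With the 3′-most probe only it was 0 (16.7% of genes with 2 or 3 probes of 1 accession). No cathepsin had a measured difference under any scaling, normexp, the stricter filter, the brightest probe per gene, the deposited log2 values or outlier spots kept. With the weaker flag 5 had one, at a median of 0.56 (log2) relative to the median gene, from -4.55 (CTSA) to 3.99 (CTSD), and without a filter on dim probes 8 had one, from -1.41 (CTSK) to 4.02 (CTSD). CTSA, CTSC, CTSH and CTSK then lay below the median gene. With 75th percentile scaling, 0 of the 7 cathepsins with a bound had one of at least 2-fold (14.2% of all named genes with a bound). The count was 7 without scaling (94.7% of all such genes), 4 with spike-in scaling (60.4%) and 3 with median scaling (39.5%). With the 3′-most probe only under 75th percentile scaling it was 3 of 8 (27.4% of genes treated in the same way). The count stayed at 0 with quantile normalization (8.35% of all such genes) and with the percentile over probes detected on both arrays (15.2%). It was also 0 with normexp (21.0%) and with the floor at the 99th percentile of the negative controls (23.8%). The median unscaled bound of 3.38 (log2) was 1.41 with normexp, 3.96 with the negative-control floor and 3.77 with the 3′-most probe, which adds CTSA. With normexp the unscaled bound was 0.91 for CTSH, 0.91 for CTSS and 0.55 for CTSK, below 2-fold. It was 1.41 for CTSC, 2.42 for CTSB, 2.95 for CTSD and 3.02 for CTSZ. The causes were not tested beyond what each alternative is built from. No paired analysis was possible because each fraction has 1 array. Signals near background limit the supernatant values.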
